A study of Mus musculus with 6 samples.

Results

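The genes described here are 10 components of TGF-beta and activin signalling, chosen by gene name, out of 47643 genes counted in mouse pancreatic islets. They are the ligand genes Tgfb1, Tgfb2, Tgfb3, Inhba and Inhbb, the receptor genes Tgfbr1 and Tgfbr2, the activin-binding protein gene Fst, and the intracellular genes Smad3 and Smad7. All 10 names were found, and 9 of them had enough reads to be tested. Islets came from transgenic mice (TG) that carry miR-203, a microRNA, as a transgene specific to beta cells, and from wild-type mice (WT), with 3 libraries each. Values of a group are listed in the order of its libraries 1, 2 and 3. Mice of both genotypes were labelled male, were 10 weeks old and had been fasted for 12 h. The labels name neither the driving promoter nor the strain, and they do not say that each library came from its own animal. The p-values therefore measure the spread among these libraries, part of which may be technical.

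TGF-beta and activin ligands are secreted dimers that bring together a type II and a type I receptor at the cell surface. The type I receptor then phosphorylates SMAD2 and SMAD3, which join SMAD4 and regulate transcription in the nucleus, and SMAD7 is induced by the pathway and limits it. Follistatin, the product of Fst, binds activins and keeps them from their receptors. In the pancreas the pathway is known for roles in islet development, in beta-cell maturity and function, and in matrix production by stellate cells.

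Libraries held 21615905 to 27482339 counts in TG and 20176456 to 24631199 in WT. The authors deposited TG 1, TG 2, WT 1 and WT 2 together (the first table) and TG 3 with WT 3 apart from them (the second table), and the comparison carried a term for this division. In the second table both libraries went against the male label. Xist, an RNA made from the inactive X of females, had 27240 counts in TG 3 and 25145 in WT 3, but 4 to 13 in the libraries of the first table. WT 1 held 39 reads of the Mir203 gene, against 150 to 170 in the TG libraries and 0 in WT 2 and WT 3. Beta-cell markers were present in all libraries, with a summed level of 56423, 224372 and 54720 CPM (counts scaled to a common library size) in TG and of 238368, 230779 and 117163 CPM in WT. By this sum TG 2 stood apart from the other TG libraries and near WT 1 and WT 2, although its 164 Mir203 reads were like theirs. A few abundant genes can set such a sum. Gene by gene, 7 of the 10 beta-cell markers lay below the WT libraries of their own table in every TG library, TG 2 included. Such an order was seen in 13.4% of all genes tested. The median marker lay -2.31, -0.40 and -1.27 log2 units from its table's WT mean in the TG libraries. Values without TG 2 are given beside the results. Leaving out a TG library because it is near WT favours larger differences, so those values are no independent support. Both genotypes of a table shared these sex transcripts, and values from the first table alone are given for the main results.

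Because the transgene adds miR-203, the members were searched for matches to its seed, the bases that pair with target transcripts. The mature sequence (RefSeq, GRCm38.p6, plus strand, chr12:112130927-112130948) is shown first with its seed, bases 2 to 8, in capitals, and the matches follow with the letters CATTTCA in capitals.
mmu-miR-203-3p: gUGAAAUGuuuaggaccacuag
Inhba, match 1: tccatgaaacaggaCATTTCAt
Inhba, match 2: gtagtacgtgggtaCATTTCAa
Inhba, match 3: aatttatatgagtgCATTTCAa
Tgfb2: ttgtttccagcccgCATTTCAc
Tgfb3: gccagactggaaggCATTTCAg
Tgfbr2: tagaaatgtgcattCATTTCAc

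The motif was searched on the transcript strand in the longest annotated 3′ untranslated region (3′ UTR) of each gene (GENCODE, GRCm38). Of the 10 members, 4 held it and 6 did not, and of 21004 genes with such a region 16.0% held it. That share takes no account of length. The median 3′ UTR had 953 bases, and every member except Tgfb1 (135 bases) had a longer one. In Inhba the matches lay on the plus strand at chr13:16028573-16028594, chr13:16028856-16028877 and chr13:16031331-16031352, and 2 of them had an A after the motif, the 8-base form CATTTCAA that 5.1% of genes held. Inhba has a long 3′ UTR of 4492 bases, and among 577 genes with a 3′ UTR within 10% of that length 49.2% held the motif. These matches lie past 16027211, where the authors' annotation ends Inhba, so reads over them would not have been counted for the gene. The other matches were on the minus strand, in Tgfb2 at chr1:186625030-186625051, in Tgfb3 at chr12:86057407-86057428 and in Tgfbr2 at chr9:116088688-116088709. Among genes with a 3′ UTR of like length, 29.2% held the motif for Tgfb2, 11.5% for Tgfb3 and 56.5% for Tgfbr2. Tgfbr1, the member that was lower in TG, held no match in its 4154 bases, and of 701 genes with a 3′ UTR of like length 46.1% held one. For the other members without a match this share was 0.9% for Tgfb1, 20.7% for Inhbb, 15.5% for Fst, 37.7% for Smad3 and 16.3% for Smad7. A match describes the letters only, and binding was not measured.

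The activin subunit genes stood out among the member ligand genes, with higher levels in every TG library than in any WT library. Of the 12 other ligand genes of the TGF-beta superfamily tested, 2 had such levels too, beside 6.96% of all genes tested. Inhba, which encodes the subunit of activin A (chromosome 13, 16011851 to 16027211), measured 12.4, 3.22 and 3.90 CPM in the TG libraries, against 1.24, 1.50 and 1.14 CPM in the WT libraries. The groups did not overlap, and TG 1 was far above the other TG libraries. Inhbb, which encodes the subunit of activin B (chromosome 1, 119415465 to 119422248), had levels of 62.8, 25.4 and 89.7 CPM in the TG libraries and 18.7, 17.8 and 19.4 CPM in the WT libraries. These groups did not overlap either, and TG 2 was the TG library nearest to WT. The WT libraries lay within a narrow band for both genes, so the spread was almost entirely within TG. In bulk tissue, more or fewer cells of a type and more or less RNA per cell cannot be told apart. The mean levels were 6.52 ± 5.14 CPM over the TG libraries and 1.29 ± 0.184 CPM over the WT libraries for Inhba, and 59.3 ± 32.3 CPM over the TG libraries and 18.6 ± 0.809 CPM over the WT libraries for Inhbb (SD, n = 3 each). The log2 fold change, TG over WT, was 2.27 (SE 0.54) for Inhba, a 4.83-fold difference, and 1.59 (SE 0.36) for Inhbb, a 3.00-fold difference.

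Neither activin subunit gene passed the threshold in the edgeR quasi-likelihood test, with Benjamini-Hochberg adjusted p of 0.204 for Inhba and 0.199 for Inhbb. That test called 0 of 16072 genes, that is 0% of those tested in either direction, while 14.1% had an unadjusted p under 0.05. DESeq2, which called 4.68% of genes, called both, with adjusted p of 0.00207 for Inhba and 0.00110 for Inhbb. Without TG 2 edgeR called both too, with log2 fold changes of 2.64 for Inhba (adjusted p = 0.00594) and 1.96 for Inhbb (adjusted p = 0.00103), while it called 13.2% of all genes. In the first table alone the log2 fold changes were 2.51 for Inhba and 1.28 for Inhbb, with an adjusted p of 0.914 for each. Over all alternatives the edgeR, DESeq2 or limma-voom adjusted p ran from 1.15e-08 to 0.924 for Inhba and from 3.26e-13 to 0.924 for Inhbb, each lowest without the low-count filter. A level above all WT libraries in every TG library was seen in 6.96% of all genes tested.

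**Figure D1:**
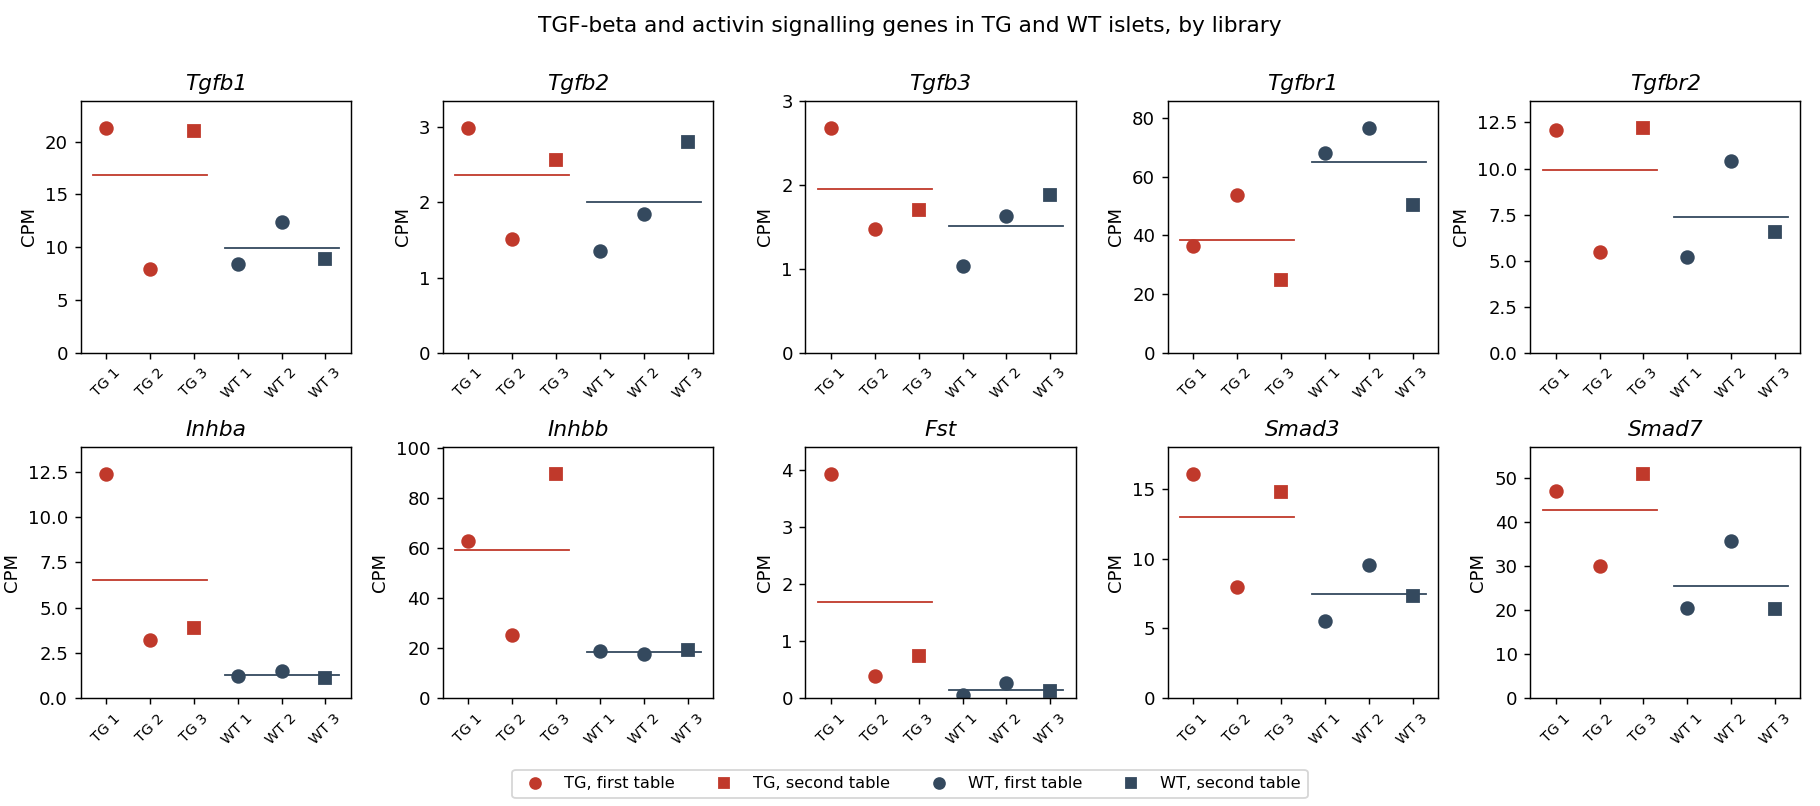
Level of each of the 10 genes (y axis, CPM from 0, a separate scale per gene) in every library (x axis, TG left of WT), with a line at the group mean. Circles are libraries of the first table and squares those of the second. Inhba, Inhbb and Fst lie above every WT library in all TG libraries, and Tgfbr1 in TG lies below WT within each table.

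Fst, the gene of the activin antagonist follistatin (chromosome 13, 114452262 to 114458730), had few reads. It had 113, 10 and 18 counts in the TG libraries, against 1, 6 and 3 counts in the WT libraries. Scaled to library size, TG 1 was at 3.93 CPM, TG 2 at 0.397 CPM and TG 3 at 0.747 CPM, with 95% exact Poisson intervals of 3.24 to 4.72 for TG 1, 0.190 to 0.730 for TG 2 and 0.443 to 1.18 for TG 3. WT 1 was at 0.0540 CPM, WT 2 at 0.264 CPM and WT 3 at 0.131 CPM, with intervals of 0.00137 to 0.301 for WT 1, 0.0969 to 0.575 for WT 2 and 0.0271 to 0.384 for WT 3. Only TG 1 lay clear of the WT intervals by counting error. TG 2 and TG 3 were above every WT value, but the intervals of TG 2 overlapped those of all WT libraries. These intervals hold counting error alone and leave out the spread between libraries. They take each read as a separate molecule, and no molecular identifiers are described for these reads. Fst did not pass the low-count filter and was not tested in the comparison of all libraries. It was tested under 5 alternatives, and edgeR called it in 2 of them, with a log2 fold change of 3.93 without TG 2 (Benjamini-Hochberg adjusted p = 0.0107) and of 3.30 without the filter (adjusted p = 1.5e-07). It did not pass without WT 1 (2.82, adjusted p = 0.482), without WT 2 (3.73, adjusted p = 0.471) or without WT 3 (3.67, adjusted p = 0.924). It was among the 5 members called without that filter, 4 higher and 1 lower, where 4.37% of all genes were called higher, 1.25% lower and 5.62% in all. Without the filter edgeR also called Gdf10, a ligand gene described below (adjusted p = 1.57e-22), although its TG 2 value lay within the WT range. A low adjusted p under this setting thus did not require that the groups separate. Exons of Fst overlap an antisense gene, Gm47040, and whether the authors counted by strand is not stated, so its reads are uncertain.

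The TGF-beta ligand genes did not separate the genotypes. Tgfb1, the one with the highest FPKM (counts scaled to gene length) among them (chromosome 7, 25687002 to 25705077), had levels of 21.3, 7.98 and 21.0 CPM in the TG libraries and 8.42, 12.4 and 8.93 CPM in the WT libraries. TG 1 and TG 3 were above all WT libraries, whereas TG 2 was the lowest of all 6. Tgfb2 (chromosome 1, 186622792 to 186705989) had levels of 2.99, 1.51 and 2.57 CPM in the TG libraries and 1.35, 1.85 and 2.80 CPM in the WT libraries. Tgfb3 (chromosome 12, 86056744 to 86079041) had levels of 2.68, 1.47 and 1.70 CPM in TG and 1.03, 1.63 and 1.88 CPM in WT. For both of these genes the groups overlapped, and in the second table TG 3 lay slightly below WT 3. Log2 fold changes were 0.74 (SE 0.39) for Tgfb1, 0.28 (SE 0.37) for Tgfb2 and 0.37 (SE 0.39) for Tgfb3. The edgeR adjusted p (Benjamini-Hochberg) were 0.440, 0.768 and 0.695 in the same order. Over the alternatives they ran from 0.0161 to 0.9997 for Tgfb1, from 0.421 to 0.9997 for Tgfb2 and from 0.414 to 0.9997 for Tgfb3, the first of them without TG 2, where the log2 fold change of Tgfb1 was 1.11. Tgfb2 without TG 1 was at -0.10, below 0. Exons of Tgfb2 and Tgfb3 overlap antisense genes, so reads of either strand could have been counted for them.

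Of the receptors, the type I receptor gene Tgfbr1 was lower in TG, and the type II receptor gene Tgfbr2 varied with the library. Tgfbr1 (chromosome 4, 47353222 to 47414931) had levels of 36.4, 53.9 and 24.8 CPM in the TG libraries, against 68.1, 76.6 and 50.5 CPM in the WT libraries. Within each table TG lay below WT, although TG 2 was slightly above WT 3 of the other table. Such a within-table order was seen in 13.4% of all genes tested, and no member had all TG libraries below all WT libraries, as 6.42% of genes did. The means were 38.4 ± 14.7 CPM over the TG libraries and 65.1 ± 13.3 CPM over the WT libraries (SD, n = 3 each), with a log2 fold change of -0.79 (SE 0.19), that is 0.58 times the WT level. In edgeR this had an adjusted p of 0.203 (Benjamini-Hochberg). DESeq2 called it (adjusted p = 0.0189), in a test that called 0.846% of genes as lower in TG. Without TG 2 edgeR also called it, at -1.01 (adjusted p = 0.00423), where 4.39% of genes were called as lower. In the first table alone it was at -0.68 (edgeR adjusted p = 0.914). Its direction held under every alternative, between -1.01 and -0.67, and its adjusted p lay between 0.000671, without the low-count filter, and 0.924.

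Tgfbr2 (chromosome 9, 116087698 to 116175363) had levels of 12.1, 5.48 and 12.2 CPM in the TG libraries and 5.18, 10.4 and 6.57 CPM in the WT libraries. The groups overlapped, with TG 2 and WT 1 both low and WT 2 near the higher TG libraries. The log2 fold change was 0.41 (SE 0.40), with an adjusted p of 0.679 in edgeR (Benjamini-Hochberg) and between 0.157 and 0.9997 over the alternatives. The 2 receptor genes thus lay on different sides of 0 in TG 1 and TG 3, where Tgfbr2 was 0.63 and 0.89 log2 units above the WT mean of its table and Tgfbr1 was at -0.99 and -1.03.

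Inside the cell, Smad3 and Smad7 were each higher in TG 1 and TG 3 and near WT in TG 2. Smad3, a signal-transducing SMAD (chromosome 9, 63646767 to 63757994), had levels of 16.1, 7.98 and 14.8 CPM in the TG libraries and 5.51, 9.55 and 7.31 CPM in the WT libraries. Smad7, the inhibitory SMAD that the pathway induces (chromosome 18, 75367529 to 75395935), had levels of 47.1, 30.1 and 51.1 CPM in TG and 20.6, 35.8 and 20.4 CPM in WT. For both genes TG 2 lay between WT 1 and WT 2, so the groups overlapped through that library. The log2 fold changes were 0.79 (SE 0.34) for Smad3 and 0.74 (SE 0.30) for Smad7, with edgeR adjusted p of 0.359 and 0.342 (Benjamini-Hochberg). Without TG 2 both passed in edgeR, at 1.06 for Smad3 (adjusted p = 0.0382) and 0.99 for Smad7 (adjusted p = 0.0478). The alternatives gave adjusted p of 0.0382 to 0.9997 for Smad3 and 0.00460 to 0.9997 for Smad7.

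As a group, 8 of the 9 members tested had a fitted value above 0 and 1, Tgfbr1, was below 0. The median log2 fold change was 0.74, against -0.01 over all genes tested. The members, like the lists below, were chosen with earlier results of these data known. Their counts and medians therefore describe the lists and do not test them. At an unadjusted p under 0.05 edgeR had 3 members higher (Inhba, Inhbb and Smad7) and 1 lower (Tgfbr1), where 9.32% and 4.81% of all genes had such a p in these directions. In DESeq2, where 3.83% of all genes were called higher, 2 members were called higher and 1 lower, and in limma-voom 0. Without TG 2 edgeR called 6 members higher, Fst among them, and 1 lower, where 8.82% of all genes were called higher. The median member lay 1.01, 0.08 and 1.02 log2 units from its table's WT mean in the TG libraries, and at -0.30 in WT 1 and 0.25 in WT 2. TG 2 was thus within the WT range of its table for the median member, and all genes together had medians between -0.02 and -0.01 in the TG libraries. The interaction of table and genotype passed in edgeR for none of the 9 members (adjusted p 0.9999 for each, lowest unadjusted p 0.192), and 2.28% of all genes had an unadjusted p under 0.05. The second table has 1 library of each genotype, so this test takes the spread from the first table.

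**Figure D2:**
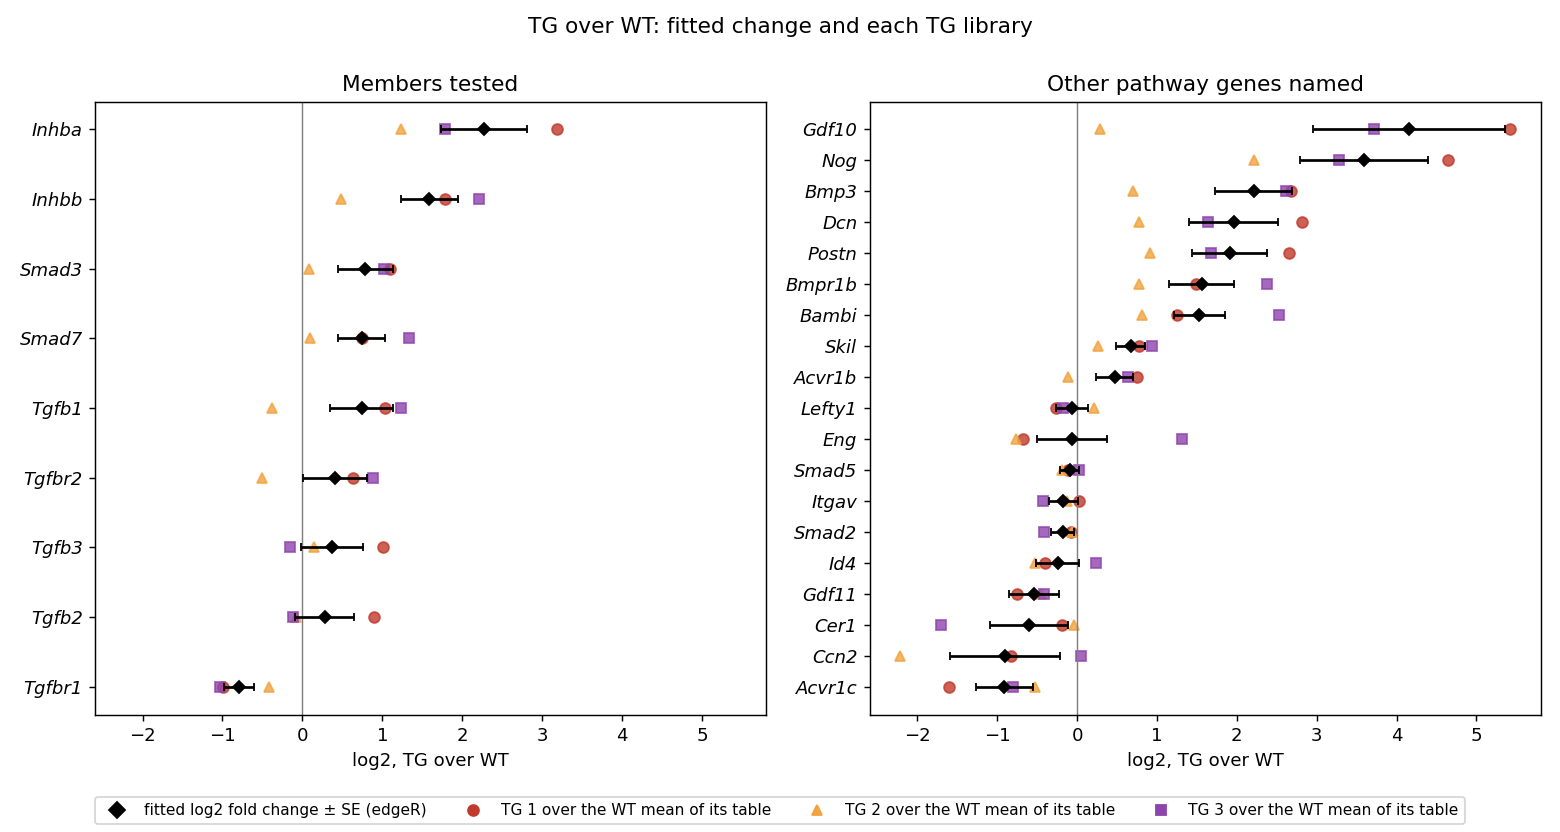
Fitted log2 fold change, TG over WT, with its SE (black diamonds and bars, edgeR) and the log2 ratio of each TG library to the WT mean of its own table (coloured points), for the 9 members tested (left) and for other genes of the pathway (right). TG 2 is the point nearest to 0 for Inhba, Inhbb, Smad3, Smad7 and Tgfbr1, and it is on the other side of 0 from TG 1 and TG 3 for Tgfb1 and Tgfbr2.

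Per unit of gene length, as the authors' FPKM (counts scaled to gene length and library size), the order of the members differed between the genotypes. The FPKM values were scaled separately for each library. In WT the order of mean levels was Tgfbr1, Smad7, Inhbb, Tgfb1, Tgfbr2, Smad3, Inhba, Tgfb3, Tgfb2 and Fst, at 9.86 ± 1.33 FPKM for Tgfbr1 and 0.0638 ± 0.0429 FPKM for Fst (SD, n = 3). Neighbours whose WT ranges overlapped were Smad7 with Inhbb, Tgfb1 with Tgfbr2, Tgfbr2 with Smad3, Inhba with Tgfb3, and Tgfb3 with Tgfb2. In TG the highest mean level was that of Inhbb, at 14.1, 5.71 and 23.0 FPKM in the TG libraries, against 4.17, 3.99 and 5.04 FPKM in the WT libraries. Tgfbr1 ranked 3 of 10 in TG, at 5.32, 7.88 and 4.14 FPKM in the TG libraries and 9.89, 11.2 and 8.52 FPKM in the WT libraries. In TG 2 Tgfbr1 was still the highest member, whereas in TG 1 and TG 3 both Inhbb and Smad7 were above it, as was Inhba in TG 1 and Tgfb1 in TG 3. Among the activin subunit genes Inhbb was above Inhba in every library, with 14.3 ± 8.67 and 3.24 ± 2.42 FPKM in TG and 4.40 ± 0.562 and 0.649 ± 0.0636 FPKM in WT (Inhbb first, SD, n = 3). The FPKM of Inhba rests on a gene length of 1980 bases in the authors' annotation, an annotation that leaves out the longer 3′ UTR for FPKM and counts alike.

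**Figure D3:**
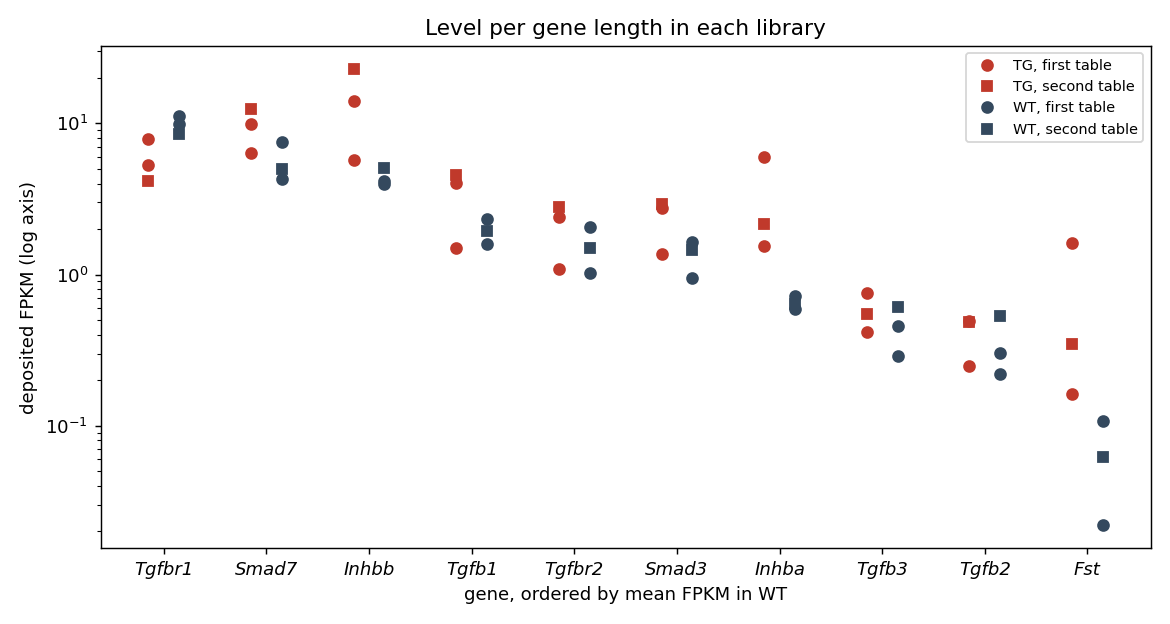
Deposited FPKM of each member in every library (y axis, log scale), with TG points left of WT points and genes in the order of their mean in WT (x axis). Inhbb reaches 23.0 FPKM in TG 3 and Tgfbr1 11.2 FPKM in WT 2, while Tgfb2, Tgfb3 and Fst do not pass 1.61 FPKM.

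The genes closest to the 3 members with the largest fitted differences were taken by the root mean square difference in log2 level, each relative to the WT mean of the own table, over the 6 libraries. Inhba and Inhbb came first, and Tgfbr1 (-0.79) was taken before Smad3 (0.79) by a margin under the printed digits, an order that turned under some alternatives, such as the stricter filter (-0.79 for Tgfbr1 and 0.80 for Smad3). WT 3 is the only WT library of its table and adds 0 to this measure. Closest to Inhbb were A4galt, Galr2 and Tro, with differences of 0.044, 0.082 and 0.097 log2 units. Galr2, a galanin receptor gene, was at 11.9, 4.52 and 16.4 CPM in the TG libraries and at 3.78, 3.17 and 3.85 CPM in the WT libraries. Closest to Inhba were Dpt, Plod2 and Pcp4l1, at 0.167, 0.228 and 0.240 log2 units. Dpt (dermatopontin), a matrix protein gene, is also one of the stellate-cell markers used here, and was at 3.93, 1.11 and 3.61 CPM in TG and 0.324, 0.572 and 1.05 CPM in WT. Over the 12 stellate, fibroblast and pericyte markers the median lay 2.24, -0.22 and 1.37 log2 units from its table's WT mean in TG. Inhba lay at 3.19, 1.23 and 1.78 by the same measure. Plod2, a collagen-modifying enzyme gene, was at 25.1, 4.96 and 6.52 CPM in TG and at 2.43, 3.43 and 2.23 CPM in WT. Closest to Tgfbr1 were Dzip1, Smpd2 and Slc2a6, at 0.048, 0.072 and 0.076 log2 units.

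From each list of other superfamily genes, those with the smallest p in each direction are described, although 0 of them passed in edgeR. Bmp3, a ligand that opposes other BMPs (chromosome 5, 98854415 to 98884396), had levels of 63.7, 16.2 and 58.9 CPM in the TG libraries, against 8.74, 11.2 and 9.63 CPM in the WT libraries. All TG libraries were above all WT libraries. Gdf10, a close relative of Bmp3, was at 11.1 and 10.4 CPM in TG 1 and TG 3, but at 0.318 CPM in TG 2, against 0.436 ± 0.350 CPM over the WT libraries (SD, n = 3). Nog, which encodes the BMP antagonist noggin (chromosome 11, 89300638 to 89302332), had levels of 3.41, 0.635 and 1.70 CPM in TG and 0.0540, 0.220 and 0.175 CPM in WT, where it had few reads. Gdf11, another ligand gene, was at 1.25, 1.55 and 1.29 CPM in the TG libraries, against 1.67, 2.55 and 1.71 CPM in the WT libraries. Every TG library was below every WT library, with a log2 fold change of -0.54 (SE 0.31), and that of the ligand gene Lefty1 was -0.06 (SE 0.20). Bmpr1b, a type I BMP receptor gene, was at 7.76, 4.68 and 7.31 CPM in TG and 3.62, 1.89 and 1.40 CPM in WT. Bambi, which encodes a pseudoreceptor that dampens TGF-beta and BMP signals (chromosome 18, 3507957 to 3516404), had levels of 70.7, 52.2 and 130 CPM in TG and 30.4, 29.2 and 22.4 CPM in WT. Nog, Bmpr1b and Bambi did not overlap between the groups, and for each of them TG 2 was again the TG library nearest to WT. Over the 83 other pathway genes tested, 7 had all TG libraries above all WT libraries and 2 had all below, beside 6.96% and 6.42% of all genes.

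Log2 fold changes were 2.21 (SE 0.48) for Bmp3, 4.16 (SE 1.20) for Gdf10, 3.59 (SE 0.80) for Nog, 1.56 (SE 0.41) for Bmpr1b and 1.53 (SE 0.32) for Bambi. Of these 5 genes, 0 passed in edgeR, where the adjusted p (Benjamini-Hochberg) was 0.199 for Bmp3, Nog and Bambi, 0.227 for Bmpr1b and 0.242 for Gdf10. DESeq2 called Bmp3 (adjusted p = 0.000181), Bambi (0.000311), Nog (0.00284) and Bmpr1b (0.0124), and Gdf10 was at 0.0555. Without TG 2 all 5 passed in edgeR, with adjusted p between 0.000614 for Bmp3 and 0.0213 for Bmpr1b. The highest adjusted p over the alternatives was 0.927, for Bmpr1b, and 0.924 for the other 4.

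Acvr1c, which encodes the type I receptor ALK7, was at 2.78, 5.83 and 4.23 CPM in the TG libraries and at 6.15, 10.7 and 7.35 CPM in the WT libraries, below every WT library in each TG library. Its log2 fold change was -0.91 (SE 0.36), with adjusted p of 0.324 in edgeR and 0.189 in DESeq2 (Benjamini-Hochberg), and it was called without the low-count filter (0.0359) but not without TG 2 (0.0584). Acvr1b, the gene of the type I activin receptor ALK4, averaged 55.2 ± 16.4 CPM over the TG libraries and 39.7 ± 1.24 CPM over the WT libraries (SD, n = 3), and passed in edgeR only without TG 2 (adjusted p = 0.0115). Of the 11 other receptor and coreceptor genes tested, 9 had fitted values above 0 and 2 below, with a median log2 fold change of 0.25. All TG libraries were below all WT libraries for 1 of the 11, beside 6.42% of all genes tested. Eng, the gene of the coreceptor endoglin, was at 41.4 and 39.0 CPM in TG 1 and TG 2 but at 134 CPM in TG 3, against 62.0 ± 18.8 CPM over the WT libraries (SD, n = 3), and the sign of its small log2 fold change (-0.06) turned under several alternatives.

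Smad2, the other SMAD that activin and TGF-beta receptors phosphorylate, averaged 29.5 ± 3.90 CPM over the TG libraries and 33.3 ± 1.46 CPM over the WT libraries, with a log2 fold change of -0.18 (SE 0.14). Smad5, a SMAD of the BMP branch, was at 57.3 ± 4.93 CPM over the TG libraries and 61.3 ± 9.11 CPM over the WT libraries (SD, n = 3 each). Skil, which encodes the SMAD repressor SnoN, was at 134, 94.1 and 70.2 CPM in the TG libraries and at 82.8, 74.3 and 36.6 CPM in the WT libraries, with TG above WT within each table, an order seen in 13.0% of all genes tested. The log2 fold change of Skil was 0.67 (SE 0.18), with adjusted p of 0.233 in edgeR and 0.0325 in DESeq2 (Benjamini-Hochberg). Over the 16 other SMADs and intracellular regulators 10 were above 0 and 6 below, and the median was 0.10.

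Genes that these signals are known to induce in various cells did not move as one. Of 24 tested, 17 had fitted values above 0 and 7 below, with a median log2 fold change of 0.29. At an unadjusted p under 0.05 edgeR had 5 of the 24 higher and 0 lower, beside 9.32% and 4.81% of all genes. Postn, the matrix protein periostin, was at 11.1, 3.33 and 6.19 CPM in the TG libraries and at 1.57, 1.98 and 1.93 CPM in the WT libraries. The groups did not overlap, and TG 2 was the TG library nearest to WT. Of these 24 genes, 1 had all TG libraries above all WT libraries, beside 6.96% of all genes tested. The log2 fold change of Postn was 1.91 (SE 0.47), with adjusted p of 0.216 in edgeR and 0.00491 in DESeq2 (Benjamini-Hochberg). Ccn2, a common response gene, was at 4.74 ± 2.11 CPM over the TG libraries and 9.02 ± 7.95 CPM over the WT libraries, where WT 2 alone held 18.1 CPM, and Id4 was at 5.78 ± 0.975 CPM over the TG libraries and 7.12 ± 3.25 CPM over the WT libraries (SD, n = 3 each). Without WT 2 the fitted values of both were above 0, at 0.22 for Ccn2 and 0.03 for Id4.

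Of 20 latency proteins, activators and extracellular antagonists tested, 13 had fitted values above 0 and 7 below, with a median of 0.40. Dcn, the gene of decorin, a small proteoglycan that binds TGF-beta, was at 26.0, 6.27 and 12.0 CPM in the TG libraries and at 2.32, 5.02 and 3.85 CPM in the WT libraries. For Cer1, an extracellular antagonist gene, and Itgav, an integrin subunit gene that takes part in releasing latent TGF-beta, the log2 fold changes were -0.60 (SE 0.49) and -0.17 (SE 0.18). The groups of Dcn did not overlap, its log2 fold change was 1.96 (SE 0.56), and its adjusted p was 0.238 in edgeR and 0.00784 in DESeq2 (Benjamini-Hochberg). Of these 20 genes, 2 had all TG libraries above all WT libraries, beside 6.96% of all genes tested. In all, 83 of the 99 other pathway genes were tested, with 59 fitted values above 0, 24 below and a median of 0.29. Of these 83, edgeR called 0 in either direction, and an unadjusted p under 0.05 was found for 16 that were higher and 1 that was lower, where the shares over all genes were 9.32% and 4.81%. The calls of DESeq2 were 7 higher and 0 lower, beside 3.83% and 0.846% of all genes. Those of edgeR without TG 2 were 21 higher and 0 lower, beside 8.82% and 4.39% of all genes.

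Several members and pathway genes are expressed by stromal and immune cells as well as by endocrine cells, and marker levels of these cells moved with the libraries. Stellate, fibroblast and pericyte markers (12 of 12 genes measured) summed to 137, 35.9 and 143 CPM in the TG libraries, against 35.7, 75.7 and 73.8 CPM in the WT libraries. They were thus highest in TG 1 and TG 3 and lowest in TG 2 and WT 1. Among the members the same held for Tgfb1 and Tgfbr2 only. Endothelial markers summed to 386, 353 and 643 CPM in TG and 345, 477 and 310 CPM in WT, with TG 3 the highest. Macrophage and myeloid markers summed to 208, 120 and 216 CPM in TG and to 90.0, 208 and 94.0 CPM in WT. Duct markers summed to 2897, 2300 and 2395 CPM in TG and to 1707, 1490 and 1198 CPM in WT, without overlap. Alpha-, delta- and PP-cell markers summed to 72705, 42165 and 57963 CPM in TG and to 26482, 36177 and 33274 CPM in WT, also without overlap of the sums. By single genes, all TG libraries were above all WT libraries for 6 of the 10 duct markers tested. The same held for 3 of the 9 alpha-, delta- and PP-cell markers, beside 6.96% of all genes tested. Schwann-cell markers summed to 29.1, 18.5 and 36.2 CPM in TG and to 14.1, 13.5 and 23.5 CPM in WT, and S100b was at 0 in a library, the only marker of any list that was. Acinar markers were low in both libraries of the second table, with 308 CPM for TG 3 and 149 CPM for WT 3, against 3330 to 7295 CPM in the first. The part of these cells in the values of the members was not tested.

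**Figure D4:**
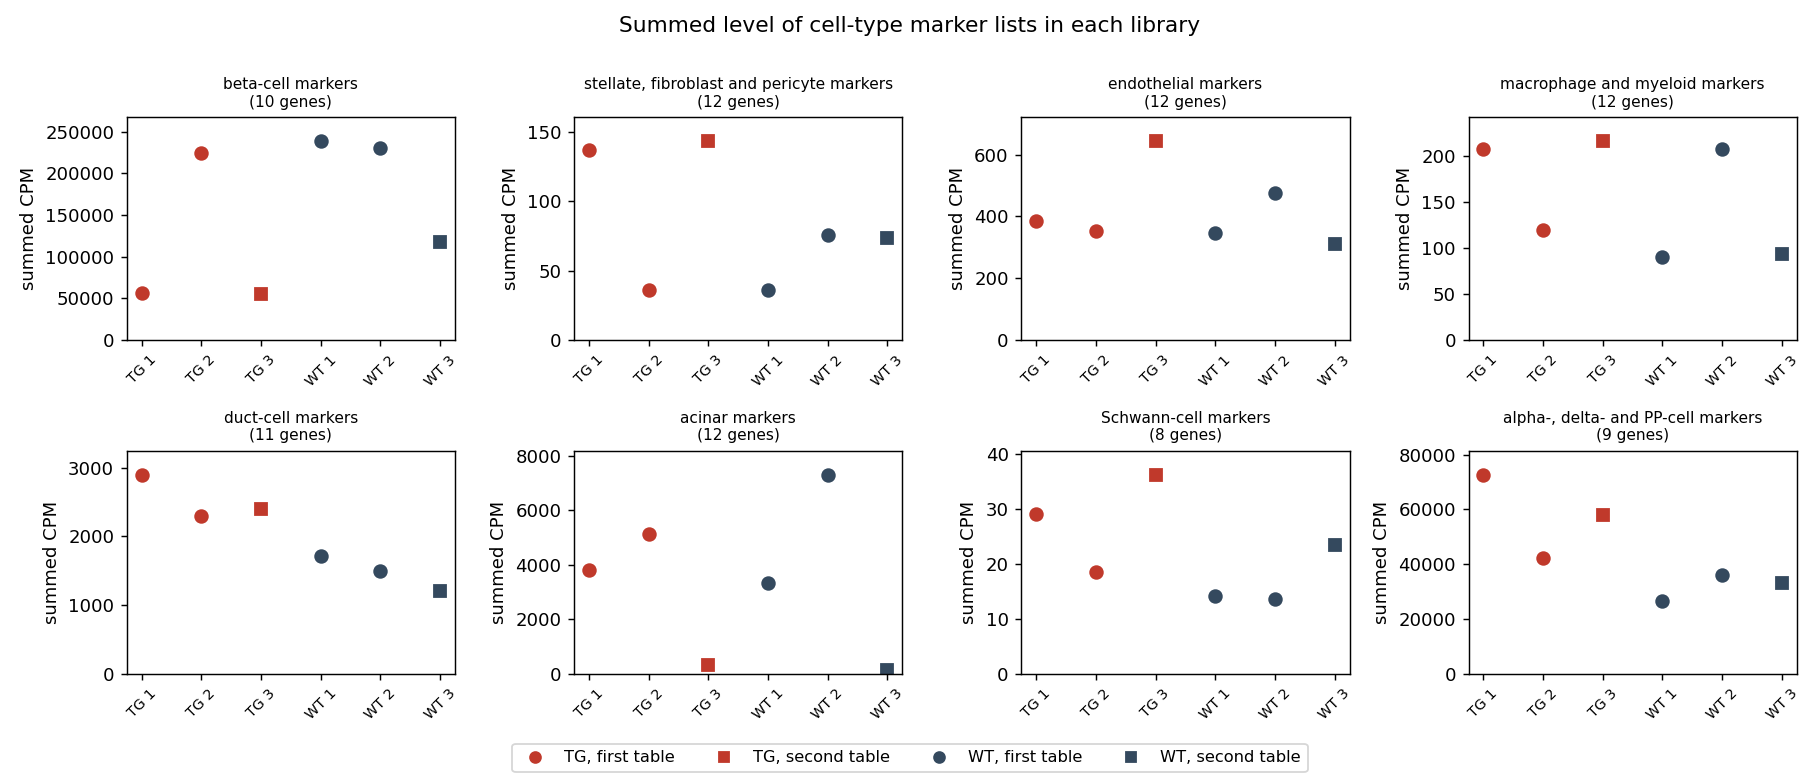
Summed CPM of 8 lists of cell-type markers (y axis, from 0, a separate scale per list) in every library (x axis, TG left of WT). Circles are libraries of the first table and squares those of the second. Beta-cell markers are low in TG 1 and TG 3, where stellate, fibroblast and pericyte markers are high, at 137 and 143 CPM.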

How the data were processed

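Islet RNA was sequenced in 3 TG and 3 WT libraries, prepared from 3 µg of RNA each with a NEBNext Ultra kit, per the labels' protocols. The authors deposited raw read counts per gene and FPKM values. The submitters' processing notes name CASAVA 1.8, HISAT2 and GRCm38 (mm10), and no source used here gives the read counter, strand setting or annotation release. Each deposited FPKM value equalled the raw count divided by gene length and by 1 number of reads per library (19519142 to 30120071), within a relative tolerance of 1e-06.

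The raw counts of the first and second table were merged by gene ID. The comparison used edgeR 4.0.16 (R 4.3.3) with filterByExpr, TMM normalization and the quasi-likelihood F-test, and had terms for table and genotype. Adjusted p are by Benjamini-Hochberg over all 16072 genes tested, with a threshold of 0.05. The SE is the size of the log2 fold change over the square root of its F statistic. CPM uses the TMM-adjusted library size. Alternatives were DESeq2 1.42.0, limma-voom (limma 3.58.1), another normalization, other filters, no table term, the first table alone, and each library left out. The fits were tested on simulated data with equal spread for every gene and no difference between the tables. Those data held no library that departed from its group, so they do not cover a case such as TG 2. The members and lists were chosen with earlier results of these data known. The rule for names took all 10 members and, from each other list in which no gene passed, the 2 genes with the smallest p in each direction. One gene that this rule took is counted in its list but not reported here. Replicate numbers follow the order of deposition and pair no samples.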

Additional observations from a re-analysis of the deposited data

How the results depend on the processing

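The edgeR test called 0 genes, 0 members and 0 other pathway genes, with 2271 genes at an unadjusted p under 0.05, and limma-voom called 0 genes. DESeq2 called 752 genes, 3 members and 7 other pathway genes. Without the low-count filter edgeR called 1672 genes, 5 members and 22 other pathway genes. Leaving out 1 library gave 0 to 2188 genes, 0 to 7 members and 0 to 21 other pathway genes, each highest without TG 2 and 0 without any other library. The interaction of table and genotype had 0 genes in edgeR, 5 in DESeq2 and 137 without the low-count filter, and it could not be fitted without TG 3, without WT 3, without the table term or in the first table alone. Over 9 members and 20 named pathway genes, 355 of 404 values under an alternative kept direction and call, 41 passed the threshold newly and 8 changed sign. Log2 fold changes that changed sign when 1 library was left out ran from -0.10 (without TG 1) to 0.49 for Tgfb2, from -0.23 to 0.05 (without TG 1) for Lefty1, from -0.72 to 0.38 (without WT 2) for Eng, from -1.37 to 0.22 (without WT 2) for Ccn2 and from -0.46 to 0.03 (without WT 2) for Id4. Eng was also at 0.17 without TG 1, 0.21 without TG 2 and 0.20 without the table term. The cause was not tested. No paired analysis was possible because the labels give the groups no shared replicate numbers. Fst, Nog, Tgfb2 and Tgfb3 had few reads, which limits their precision.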

Other observations

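Some pathway genes that were not named above had values that stood out, and they were chosen after their values were seen. Klf10, a TGF-beta-inducible transcription factor gene, had a log2 fold change of 1.24 (SE 0.43, TG over WT), with an adjusted p of 0.283 in edgeR and of 0.0529 in DESeq2 (Benjamini-Hochberg). It was at 58.7, 20.8 and 72.6 CPM in the TG libraries and at 24.6, 20.1 and 17.2 CPM in the WT libraries, so TG 2 lay inside the WT range. Bmp2 was at 2.89, 0.278 and 4.52 CPM in TG and at 0.270, 0.792 and 0.350 CPM in WT. Inha, the inhibin alpha subunit gene, was higher in the second table than in the first, at 17.5, 31.1 and 62.0 CPM in the TG libraries and at 25.5, 21.0 and 53.1 CPM in the WT libraries. Its log2 fold change was 0.12 (SE 0.23), in contrast to the fitted values of the activin subunit genes Inhba (2.27) and Inhbb (1.59). Genes of the BMP type I and type II receptors Bmpr1a and Bmpr2 differed little, at 0.25 (SE 0.16) and 0.17 (SE 0.21) log2 units.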
